A study of Mus musculus with 6 samples.

Results

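Npc1l1, Abcg5, Abcg8, Abca1 and Soat2 carry the uptake, efflux and esterification of sterols in the small intestine, and their RNA was followed here through the cells of the mouse intestinal epithelium by diet and bariatric surgery. The members were chosen by their symbols and are 5 of the 32285 genes measured. The samples came from male Wildtype C57BL/6J mice of about 30 weeks of age, fasted overnight, after 16 weeks of low-fat diet (LFD) or high-fat diet (HFD) and 5 weeks after a sham operation or vertical sleeve gastrectomy (VSG), a procedure that removes most of the stomach along its greater curvature. The 3 groups, LFD sham, HFD sham and HFD VSG, each gave a library of crypts and a library of villi, single-cell RNA being counted as unique molecular identifiers (UMIs). Cells of 3 mice were pooled in each sham library and of 2 mice in each VSG library, so each group is 1 library per compartment with no replicate, no test between groups was possible, and every interval below is a 95% interval that covers counting error only. By the study's methods crypts and villi were taken from the same jejunal segments, so the crypt and villus libraries of a group share their animals, and 6 libraries stand for 3 pools of mice. No LFD VSG group was analysed here, so surgery was compared on HFD alone.

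Enterocytes take up luminal sterols and return part of them to the lumen. NPC1L1 in the brush border is the entry route of dietary and biliary cholesterol and the target of ezetimibe, the ABCG5 and ABCG8 half-transporters join into a heterodimer that exports plant sterols and cholesterol to the lumen, ABCA1 in the basolateral membrane loads cholesterol onto apolipoprotein A-I, and SOAT2 (also ACAT2) esterifies cholesterol for chylomicrons. Abca1, Abcg5 and Abcg8 are classic targets of the oxysterol receptor LXR, whereas sterol synthesis genes are driven by SREBP2 when cell sterol is low.

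In the mm10 assembly (GENCODE vM21), Npc1l1 lies on the minus strand of chromosome 11 at 6211013 to 6230143 with 19 exons. Abca1 lies on the minus strand of chromosome 4 at 53030787 to 53159895 with 50 exons in its longest transcript. Soat2 lies on the plus strand of chromosome 15 at 102150526 to 102163469 with 15 exons. Abcg5 (chromosome 17, 84658234 to 84683011, minus strand) and Abcg8 (chromosome 17, 84676302 to 84700333, plus strand) have 13 exons each and lie head to head, and an alternative first exon of Abcg8 reaches into the body of Abcg5 on the opposite strand. Their main starts are separated by 109 bases, which is shown whole because both genes are transcribed away from it. The 250 bases before the RefSeq starts of Npc1l1 and Abca1 are shown because these members had the largest differences with diet and with surgery. Sequences are from RefSeq on GRCm38.p6, in which 4 of the 5 members had an entry, Soat2 having none. Capitals mark GATAA (the core bound by GATA factors), the CCAAT box, the nuclear receptor half-site AGGTCA and the E-box CACGTG, all searched on both strands. The letters of each strand run 5′ to 3′, the stretch between Abcg5 and Abcg8 on the plus strand and the others on the minus strand.
Abcg5 and Abcg8, chr17:84683012-84683120: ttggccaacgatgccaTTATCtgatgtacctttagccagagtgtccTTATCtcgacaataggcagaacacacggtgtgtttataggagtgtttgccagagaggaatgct
Npc1l1, chr11:6230246-6230495: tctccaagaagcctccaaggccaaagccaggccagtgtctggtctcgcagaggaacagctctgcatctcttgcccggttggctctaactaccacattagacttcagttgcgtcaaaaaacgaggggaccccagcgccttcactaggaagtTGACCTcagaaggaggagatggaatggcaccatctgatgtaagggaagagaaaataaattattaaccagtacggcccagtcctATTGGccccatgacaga
Abca1, chr4:53159896-53160145: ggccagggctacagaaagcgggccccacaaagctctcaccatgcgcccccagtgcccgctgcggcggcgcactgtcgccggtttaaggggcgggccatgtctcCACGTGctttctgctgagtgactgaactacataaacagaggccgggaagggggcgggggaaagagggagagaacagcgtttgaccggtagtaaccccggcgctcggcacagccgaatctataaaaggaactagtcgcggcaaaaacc
The stretch between Abcg5 and Abcg8 held 2 GATAA matches, both on the minus strand. Of 32851 RefSeq promoter windows shortened to the same 109 bases, 9.36% held at least 1 such match and 0.788% held at least 2. The Npc1l1 stretch held 1 CCAAT match and 1 AGGTCA match, found in 33.9% and 14.02% of all 250-base windows. The Abca1 stretch held 1 CACGTG match, found in 6.02% of all windows. These are letter matches and not measured binding sites. Only the exact letters were searched, so a nuclear receptor site that differs from AGGTCA stays unmarked. A stretch without capitals is therefore not shown to lack a site.

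The called barcodes of a library held 60522766 to 155522445 UMIs. After the removal of shallow barcodes, barcodes rich in mitochondrial RNA and likely doublets, 23705 cells remained, 2921 to 4658 per library, with a median of 8664 to 30288 UMIs, and any pair of libraries shared 1 to 9 of their barcodes. The cells formed 19 clusters, built without the members and without the other sterol genes listed further on. Clusters were named from marker genes, 5 of them as enterocyte-like (9813 cells), and 6 stayed unnamed. The cluster borders were not stable. With the mitochondrial share that was regressed out before integration held at a higher numerical precision, a change of at most 1.16e-07 of its value, the repeated clustering had an adjusted Rand index (1 for identical clusters) of 0.512 with the reported one, 99.8% of the enterocyte-like cells kept their name and 2918 joined them, and 49.1% of the cycling progenitor-like cells kept theirs against at least 99.5% in each of the other named classes. Each of the 30 enterocyte-like ratios given below kept its sign in the repeat. The crypt and villus labels went against the markers. Stem-like cells made up 1.07 to 2.77% of epithelial cells in the crypt-labelled libraries and 2.57 to 10.1% in the villus-labelled ones, and Paneth-like cells 0.763 to 1.67% and 2.29 to 5.98%, so the libraries are called by their label only. All 12 enterocyte markers, Sis and Apoa1 among them, had UMIs in the enterocyte-like cells of all 6 libraries. The HFD VSG villus-labelled library stood apart, with a median of 34972 UMIs in its enterocyte-like cells against 14471 to 18026 in the other libraries. The HFD sham villus-labelled library also stood apart, with 5 immune-like cells against 525 and 398 in the LFD sham and HFD VSG villus-labelled ones. It enters both the diet and the surgery ratios of the villus-labelled cells, where no second library of its group could replace it.

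All members had their place in the absorptive lineage. Enterocyte-like cells had the highest level, as UMIs of the gene relative to all UMIs of the class (CPM), of every named class with at least 20 cells in 28 of the 30 combinations of a member and a library. For Npc1l1 the level in enterocyte-like cells was 2.52 to 6.71 times that of the next class, in 6 of 6 libraries. The same fold was 3.23 to 6.83 for Abcg5, 2.86 to 7.91 for Abcg8 and 2.34 to 5.12 for Soat2, again in 6 of 6 libraries each. Which class came next differed from library to library, and classes below the enterocyte-like cells often overlapped in their intervals. In HFD VSG villus-labelled cells, Npc1l1 stood at 195.0 CPM in enterocyte-like, 29.1 in enteroendocrine (EEC)-like and 26.6 in cycling progenitor-like cells, then at 14.9 in the goblet-like class, 14.03 in the tuft-like, 9.64 in the stem-like, 6.06 in the immune-like and 5.05 in the Paneth-like. The goblet-like and tuft-like neighbours in that order, and the EEC-like and cycling progenitor-like ones, did not differ beyond counting error.

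**Figure D1:**
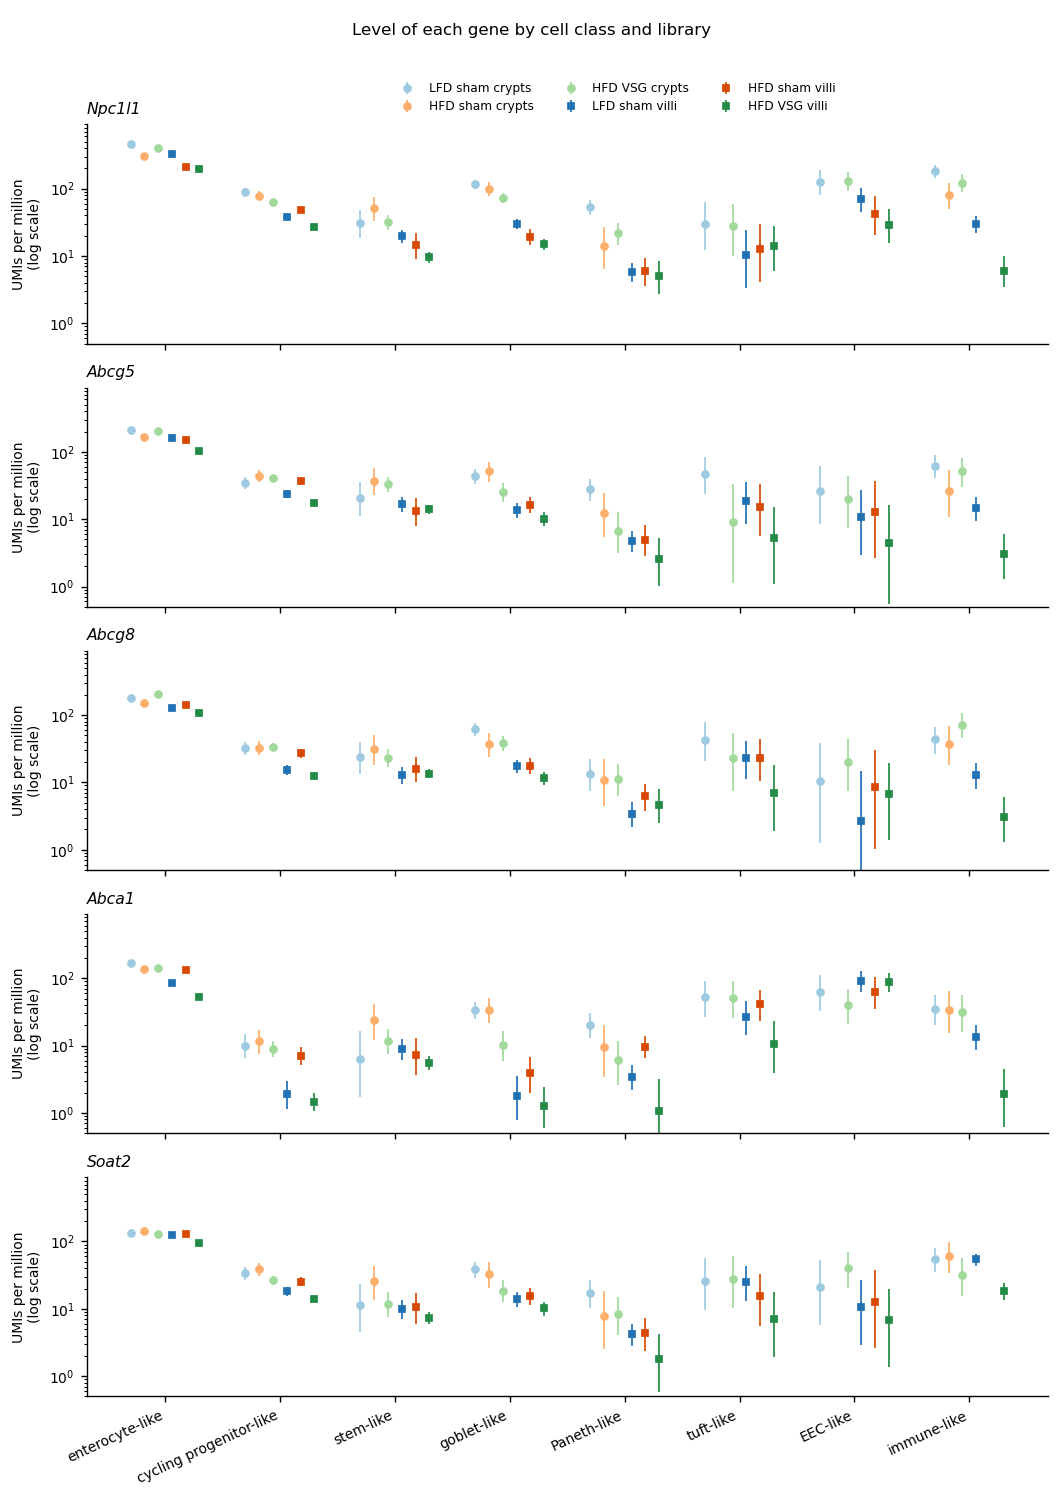
Level of each member (CPM, log axis) by cell class (x axis) and library (colour for the group, marker for the crypt or villus label), with 95% Poisson intervals. Enterocyte-like cells are highest throughout except for Abca1 in the LFD sham and HFD VSG villus-labelled libraries, where EEC-like cells lie at 90.2 and 87.2 CPM.

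Abca1 was the exception. In the LFD sham villus-labelled library it stood at 90.2 CPM (62.5 to 126) in the 42 EEC-like cells, the hormone-secreting cells of the epithelium, and at 86.0 CPM (81.7 to 90.4) in enterocyte-like cells, which cannot be told apart. In the HFD VSG villus-labelled library it stood at 87.2 CPM (62.0 to 119) in the 27 EEC-like cells and at 53.1 CPM (50.9 to 55.4) in enterocyte-like cells, so the enterocyte-like level was 0.610 times (0.445 to 0.860) the EEC-like one. These EEC-like sums are small, at 34 and 39 UMIs, and no cell held more than 18.0% of them, 16 cells in each library having a UMI. In the other libraries the EEC-like sums were 3 to 15 UMIs and the EEC-like levels 33.4 to 63.4 CPM, below those of enterocyte-like cells.

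Free RNA in the droplets can place enterocyte transcripts in other cells, and the levels outside the absorptive lineage were therefore set against the RNA of empty droplets, taken as those under 100 UMIs. Free RNA of 1 source places all enterocyte transcripts of a cell class at a like ratio to their free RNA levels, and the summed enterocyte markers gave that ratio. Most immune-like cells had a UMI of the CD3 genes Cd3e or Cd3g, which were among the markers that named the class. This held for 512 of 525 in LFD sham villi, 336 of 398 in HFD VSG villi and 61 of 72 in HFD VSG crypts. In immune-like cells the enterocyte markers lay at 0.0839 to 0.317 times their free RNA level in the 5 libraries with at least 20 such cells. Npc1l1 lay at 0.0809 to 0.521 times its free RNA level there, following the enterocyte markers downward in the 2 villus-labelled libraries. Soat2 did not follow them so far. In the 525 immune-like cells of the LFD sham villus-labelled library Soat2 lay at 0.846 (0.682 to 1.04) times its free RNA level, against 0.212 for the enterocyte markers. In the 398 immune-like cells of the HFD VSG villus-labelled library it lay at 0.474 (0.350 to 0.626), against 0.0839. In the crypt-labelled libraries the Soat2 ratio was 0.319 to 0.525 and the marker ratio 0.247 to 0.317. Npc1l1 also lay above the markers there, at 0.521, 0.350 and 0.471 in LFD sham, HFD sham and HFD VSG against 0.299, 0.247 and 0.317. A ratio above the markers was therefore not particular to Soat2 in the crypt-labelled libraries. After each cell was thinned to 3000 UMIs, 15.4% of immune-like cells of the LFD sham villus-labelled library had a Soat2 UMI (319 cells deep enough), against 33.4% of enterocyte-like cells.

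Abca1 in EEC-like cells lay above the enterocyte markers relative to the free RNA. It stood at 2.66 (1.84 to 3.72), 1.53 (0.856 to 2.52) and 5.86 (4.17 to 8.01) times its free RNA level in the LFD sham, HFD sham and HFD VSG villus-labelled libraries, where the enterocyte markers lay at 0.150, 0.137 and 0.112. In the LFD sham and HFD VSG crypt-labelled libraries it stood at 0.799 (0.413 to 1.40) and 0.711 (0.368 to 1.24) times, against 0.198 and 0.193 for the markers, from 12 UMIs each. The interval left the free RNA level itself, a ratio of 1, in the LFD sham and HFD VSG villus-labelled libraries alone of these 5, and the HFD sham crypt-labelled library had under 20 EEC-like cells. In tuft-like cells, the chemosensory cells of the epithelium, Abca1 lay at 0.656 to 0.984 times its free RNA level in 5 libraries, against 0.125 to 0.211 for the enterocyte markers, from 6 to 16 UMIs each. In the immune-like cells of a library Abca1 had 0 to 23 UMIs, and the markers of macrophages, a known site of ABCA1, had 0 to 7.

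**Figure D2:**
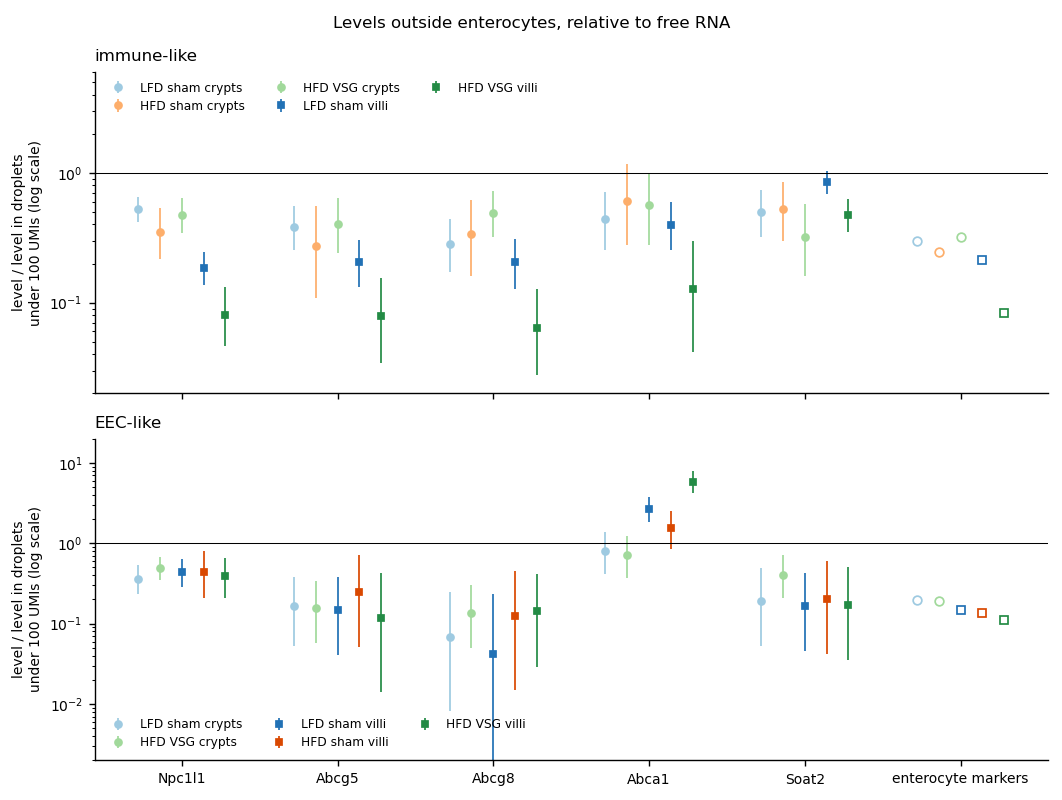
Level in a class divided by the level in droplets with fewer than 100 UMIs (log axis) for each member, with 95% intervals, beside the same ratio for the summed enterocyte markers. Abca1 in EEC-like cells of the villus-labelled libraries (1.53 to 5.86) and Soat2 in immune-like cells of the LFD sham villus-labelled library (0.846) lie well above the marker ratio of the same cells.

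The absorptive cells were not uniform. Within each library, enterocyte-like cells were ordered by a score of villus tip genes (Ada, Nt5e, Slc28a2, Klf4, Krt20, Egfr) over villus base genes (Nlrp6, Il18, Lypd8, Reg1, Cda, Gsta1) and divided into quintiles, each quintile being a range of the score and not a cell type. Npc1l1 was higher in the quintile nearest the tip than in the quintile nearest the base in 6 of 6 libraries, by 1.06 to 1.61 on the log2 scale. In the LFD sham villus-labelled library its level was 203, 252, 333, 459 and 596 CPM from base to tip. In the HFD VSG villus-labelled library it was 114, 140.3, 182, 225 and 348 CPM. Npc1l1 thus had its highest level in the quintile nearest the tip of each library. The quintiles were cut within each library and do not match in score between libraries. The median score of the top quintile was 2.46 in LFD sham villi and -1.10 in HFD VSG villi.

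Abcg5, Abcg8 and Soat2 were also higher toward the tip in most libraries, each by less than Npc1l1 of the same library. The difference between the top and bottom quintile was 0.33 to 1.44 for Abcg5, with all 6 intervals above 0, and 0.20 to 1.15 for Soat2, with all 6 intervals above 0. For Abcg8 it was 0.0037 to 1.41, with 5 of 6 intervals above 0, HFD sham crypts being level at 141.0 against 140.7 CPM. The crypt-labelled HFD libraries depended on which cells were ordered. In the repeated clustering, whose enterocyte-like cells included cluster 8 described below, the HFD sham Abcg5 difference was 0.06 (-0.13 to 0.24) in place of 0.33 and the Abcg8 difference -0.26 (-0.46 to -0.05). With cluster 8 added to the reported cells they were -0.22 (-0.43 to -0.01) and -0.40 (-0.63 to -0.18), and in HFD VSG crypts the differences went from 0.50 to 0.25 (0.15 to 0.35) for Abcg5 and from 0.43 to 0.12 (0.01 to 0.22) for Abcg8. Abca1 went both ways, being higher at the tip end in 4 libraries, by 0.35 to 1.62 (1.62 in HFD VSG villi, beside 1.61 for Npc1l1), and slightly lower in the HFD sham and HFD VSG crypt-labelled ones, at -0.14 (-0.34 to 0.07) and -0.12 (-0.24 to -0.01). In the repeated clustering Abca1 was higher at the tip end in the 3 villus-labelled libraries and lower in the 3 crypt-labelled ones, LFD sham crypts turning from 0.35 to -0.40. In the HFD VSG villus-labelled library Abca1 stood at 28.0, 36.0, 56.6, 66.5 and 86.2 CPM from base to tip. In the HFD VSG crypt-labelled library the same quintiles held 139, 147, 146, 156 and 128 CPM. Sequencing depth, as the median UMIs per cell, was lower in the highest quintile than in the lowest in all 6 libraries. It went from 19905 to 6620, 16616 to 5948 and 19648 to 16487 UMIs in LFD sham, HFD sham and HFD VSG crypts. In villi it went from 17507 to 6806, 16819 to 10948 and 35947 to 32545 UMIs. Its part in the result was not tested beyond the cells with at least 5000 UMIs, an alternative added after seeing the data, in which the Npc1l1 difference was 1.03 to 1.61.

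**Figure D3:**
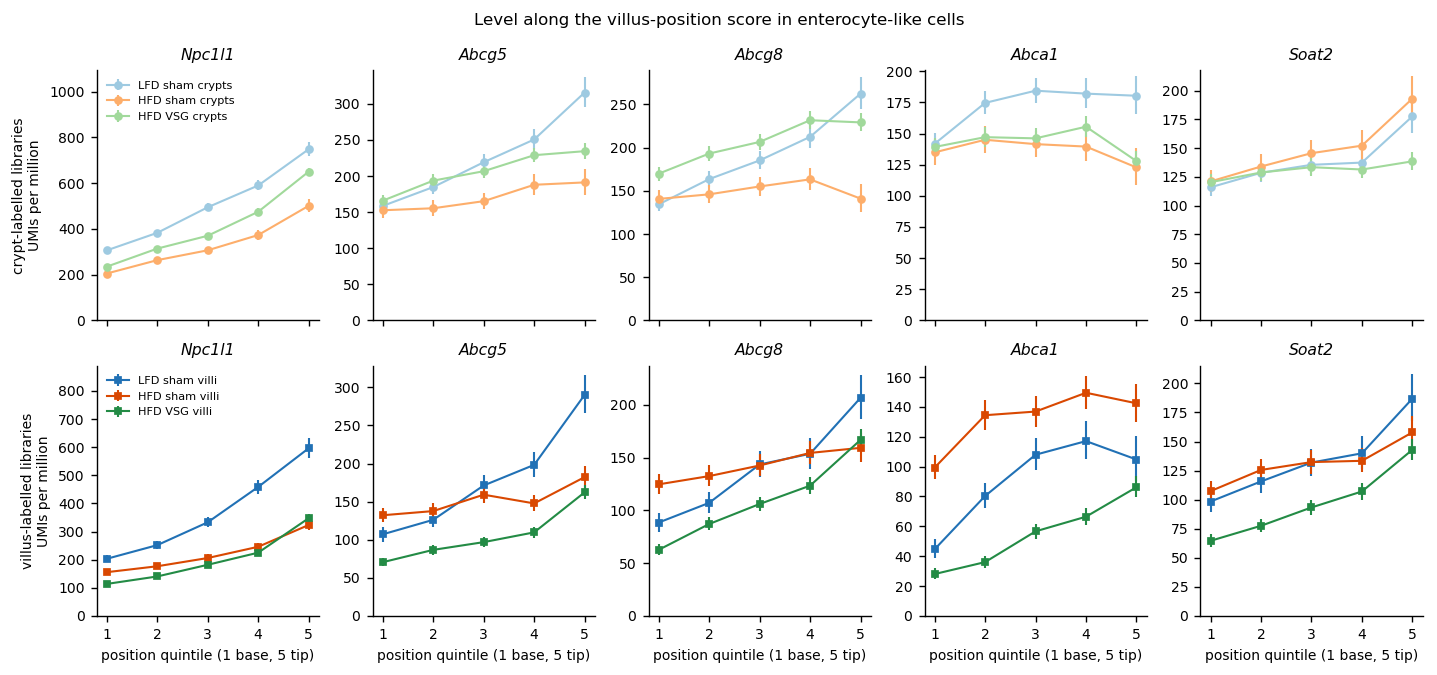
Level of each member (CPM) in enterocyte-like cells by quintile of the tip over base score, from base to tip, with 1 line per library. Npc1l1 climbs in all 6 libraries, by 1.06 to 1.61 on the log2 scale, whereas Abca1 climbs in the villus-labelled libraries and is nearly flat in the crypt-labelled ones of HFD mice.

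An unnamed cluster of 1044 cells, cluster 8, was led by genes of the villus tip (Clca4a, Ada, Nt5e and Slc28a2 among them) and had high Npc1l1 beside low Abca1. Npc1l1 stood in it at 824, 580.4 and 782 CPM in the LFD sham, HFD sham and HFD VSG crypt-labelled libraries and at 610.0, 672 and 866 CPM in the villus-labelled ones. These levels were above those of the enterocyte-like cells of the same library in 6 of 6 libraries, by 0.85 to 2.15 on the log2 scale. Abca1 stood there at 54.7, 33.5 and 40.1 CPM in crypt-labelled and at 39.1, 16.6 and 9.32 CPM in villus-labelled cells, below enterocyte-like cells in 6 of 6 libraries, at -2.97 to -1.14. Soat2 differed little, by -0.18 to 0.82, and only in the HFD VSG villus-labelled library, with 20 such cells, did its interval leave 0. Abcg5 and Abcg8 were each higher in 3 libraries and lower in 3. Cluster 8 cells were shallow, at a median of 5688 UMIs, and had more of the damaged droplet markers (Gm42418, Gm26917, Lars2 and AY036118) than enterocyte-like cells, at 172992, 152555 and 34566 CPM in LFD sham, HFD sham and HFD VSG crypts against 55925, 46800 and 13679 CPM. In villi the markers stood at 175417, 98407 and 18263 CPM in cluster 8. Their part in its levels was not tested. In the repeated clustering 1040 of the 1044 fell into an enterocyte-like cluster of 2622 cells. With cluster 8 added to the ordered cells, a choice made after seeing the data, Npc1l1 was 1.19 to 1.75 higher in the top quintile in 6 of 6 libraries, and Abca1 was higher in 3 and lower in 3, at -1.01 to 1.55.

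Another unnamed cluster, cluster 3 (1958 cells), was led by Fabp6, Gsdmc4 and Ms4a18 and lay below enterocyte-like cells for all 5 members in 6 of 6 libraries. Its Abca1 level was 59.3, 84.3 and 92.5 CPM in LFD sham, HFD sham and HFD VSG crypts and 6.94, 49.2 and 3.76 CPM in villi. Maturity markers differed between these libraries too. The early progenitor markers stood at 1717, 1871 and 2425 CPM in crypts and 4671, 2946 and 6113 CPM in villi. The enterocyte markers stood at 66237, 70879 and 61531 CPM and 40465, 52473 and 23978 CPM. In villi Abca1 was highest where the early progenitor markers were lowest, whereas in crypts both were highest in HFD VSG. The part of these markers in the Abca1 levels was not tested. The cluster was not stable, 1102 of its 1958 cells falling in the repeated clustering into the cluster that held most of them. Soat2 in the same cells spanned a narrower range, with 103, 112 and 96.2 CPM in crypts and 69.2, 89.9 and 36.1 CPM in villi. Cluster 3 had, in the LFD sham and HFD VSG villus-labelled libraries, Abca1 levels close to those of stem-like cells (8.84 and 5.54 CPM).

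Diet was compared first, HFD sham against LFD sham, in the enterocyte-like cells (1931, 1491 and 2486 cells in the LFD sham, HFD sham and HFD VSG crypt-labelled libraries, and 1166, 1613 and 1126 in the villus-labelled ones). Npc1l1 was lower on HFD under both labels. Its level was 457 (449.5 to 465), 303 (296 to 311) and 399 (393 to 405) CPM in LFD sham, HFD sham and HFD VSG crypts and 327 (319 to 336), 212 (206 to 218) and 195.0 (191 to 199) CPM in villi. The HFD sham to LFD sham ratio was thus -0.59 (-0.63 to -0.55) on the log2 scale in crypts and -0.63 (-0.68 to -0.57) in villi, 0.664 and 0.647 of the LFD sham level. The ratio was below 0 in each of the 5 enterocyte-like clusters under both labels, from -0.60 to -0.45 in crypts and from -0.89 to -0.46 in villi, and in each quintile of the tip over base score, from -0.69 to -0.54 and from -0.90 to -0.39. In cluster 8 the ratio was -0.50 (-0.63 to -0.38) in crypts and 0.14 (-0.10 to 0.38) in villi, the latter from 120 and 57 cells. The damaged droplet markers stood in these villus-labelled cells at 175417 CPM in LFD sham and 98407 CPM in HFD sham, and their part in the ratio was not tested.

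Read as the share of enterocyte-like cells with a UMI after thinning to 3000 UMIs, Npc1l1 was found in 73.3% (71.2 to 75.3) of LFD sham, 61.6% (59.0 to 64.1) of HFD sham and 65.7% (63.7 to 67.5) of HFD VSG crypt-labelled cells. In villus-labelled cells the shares were 64.5% (61.5 to 67.3), 44.9% (42.4 to 47.4) and 42.6% (39.7 to 45.6). Without thinning they were 90.7 to 98.8% in the 6 libraries. In immune-like cells, which should lack Npc1l1, the thinned shares were 20 to 29.1% in crypts and 1.26 to 7.52% in the 2 villus-labelled libraries with enough cells, with a median of 3156 to 6202 UMIs per cell before thinning against 14471 to 34972 in enterocyte-like cells.

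Among the efflux members, Abcg5 and Abcg8 were lower on HFD in the class sums of crypts, by a size that depended on the cells and settings used. In villi their small ratios changed sign between cells and settings. Abcg5 stood at 209, 167 and 204 CPM in LFD sham, HFD sham and HFD VSG crypts and at 160.3, 149 and 103 CPM in villi, HFD sham differing from LFD sham by -0.33 (-0.39 to -0.27) and -0.11 (-0.18 to -0.04). Abcg8 stood at 178, 149 and 205 CPM in crypts and at 129, 141 and 107 CPM in villi, with HFD sham to LFD sham ratios of -0.26 (-0.32 to -0.19) and 0.13 (0.05 to 0.21). In villi the Abcg5 ratio was below 0 in 4 of 5 enterocyte-like clusters and 3 of 5 quintiles (-0.67 to 0.30), and it turned to 0.03 with free RNA subtracted at the stated fractions and to 0.02 with at most 10% mitochondrial UMIs. The Abcg8 ratio in villi was below 0 in 3 of 5 clusters (-0.29 to 0.35) and 2 of 5 quintiles (-0.38 to 0.49), and turned to -0.06 with equal weight of the clusters. No direction with diet is therefore given for either in villi. In crypts the ratios stayed below 0 in the 12 alternative settings, from -0.39 to -0.12 for Abcg5 and from -0.36 to -0.05 for Abcg8. In the crypt quintile nearest the base Abcg5 lay at -0.06 (-0.19 to 0.07) and Abcg8 at 0.07 (-0.07 to 0.20). In the crypt quintile nearest the tip they lay at -0.72 and -0.90. Abcg8 was above 0 in 1 of 5 clusters in crypts. Abca1 stood at 169.9, 138 and 143 CPM in crypts and at 86.0, 131 and 53.1 CPM in villi. Its ratio was therefore -0.30 (-0.36 to -0.23) in crypts and 0.60 (0.52 to 0.69) in villi, lower on HFD in 5 of 5 enterocyte-like clusters of the first and higher in 5 of 5 of the second (0.17 to 0.91). Over the 12 alternative settings the Abca1 ratio ran from -0.36 to -0.02 in crypts and from 0.36 to 0.76 in villi, so its size in crypts depended on the setting. Soat2, the esterifying enzyme, stood at 133, 143 and 130.0 CPM in crypts and at 126, 129 and 94.9 CPM in villi, with diet ratios of 0.10 (0.04 to 0.17) and 0.03 (-0.05 to 0.10). Soat2 had the smallest diet difference of the members in both.

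A difference beyond 0.5 on the log2 scale was counted, a size and not a test. In HFD sham against LFD sham, 1 of the 5 members (Npc1l1) was lower and 0 higher in crypts, where 6.5% of the 9582 genes averaging 50 UMIs or more per library were lower and 5.54% higher. In villi 1 member was lower (Npc1l1) and 1 higher (Abca1), where 7.43% of 9624 genes were lower and 5.0% higher. All 5 members passed the same UMI minimum. The size was not reached by Npc1l1 in crypts with free RNA subtracted at the fractions the study stated (-0.47) or in villi with at most 10% mitochondrial UMIs (-0.43), nor by Abca1 in villi with clusters at resolution 0.8 (0.47) or with the 5 clusters weighted equally (0.36), the direction being kept in each. The study stated higher fractions for both HFD sham libraries than for all others. The fractions taken from immune-like cells had another order. They were 0.299, 0.247 and 0.317 in LFD sham, HFD sham and HFD VSG crypts and 0.212, 0.146 and 0.0839 in villi, HFD sham villi having 5 such cells. Which fractions hold was not tested. The median of all genes lay at 0.00 in crypts and -0.01 in villi.

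Surgery on HFD was compared next, HFD VSG against HFD sham. In crypt-labelled enterocyte-like cells Npc1l1 was 0.39 (0.35 to 0.44), Abcg5 0.29 (0.24 to 0.35) and Abcg8 0.45 (0.40 to 0.51) higher after VSG on the log2 scale. The Abcg5 ratio turned to -0.11 with at most 10% mitochondrial UMIs, and was above 0 in the 11 other alternatives. Abca1 differed by 0.05 (-0.01 to 0.11) and Soat2 by -0.14 (-0.20 to -0.07). None of the 5 passed 0.5 in either direction, where 2.38% of genes were lower and 6.32% higher and the median of all genes was 0.10. Npc1l1, Abcg5 and Abcg8 were higher after VSG in each quintile of the tip over base score of the crypt-labelled cells.

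In villus-labelled cells the same comparison went the other way for the same 3 members, at -0.12 (-0.17 to -0.07) for Npc1l1, -0.54 (-0.60 to -0.47) for Abcg5 and -0.40 (-0.47 to -0.34) for Abcg8. Abcg5 was lower in 5 of 5 enterocyte-like clusters, but Npc1l1 (-0.36 to 0.26) and Abcg8 (-0.81 to 0.15) were lower in 3 and higher in 2, and Npc1l1 turned to 0.01 with resolution 0.8. Soat2 was -0.44 (-0.51 to -0.37). Abca1 had the largest difference of any member in any comparison, -1.30 (-1.38 to -1.22), or 0.407 of the HFD sham level, and was lower in 5 of 5 enterocyte-like clusters, at -1.77 to -0.71, and in 5 of 5 quintiles. Beyond 0.5, 2 of the 5 members were lower (Abcg5, Abca1) and 0 higher. Of all genes 17.7% were lower and 19.9% higher, so differences of this size were common between these libraries. In the repeated clustering 4 members were lower, with Abcg8 at -0.56 and Soat2 at -0.62, and the share over all genes was not taken there. The thinned share of cells with an Abca1 UMI was 32.7% (30.4 to 35.1) in HFD sham and 15.4% (13.3 to 17.6) in HFD VSG villi, against 0.251% of the immune-like cells in the latter.

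**Figure D4:**
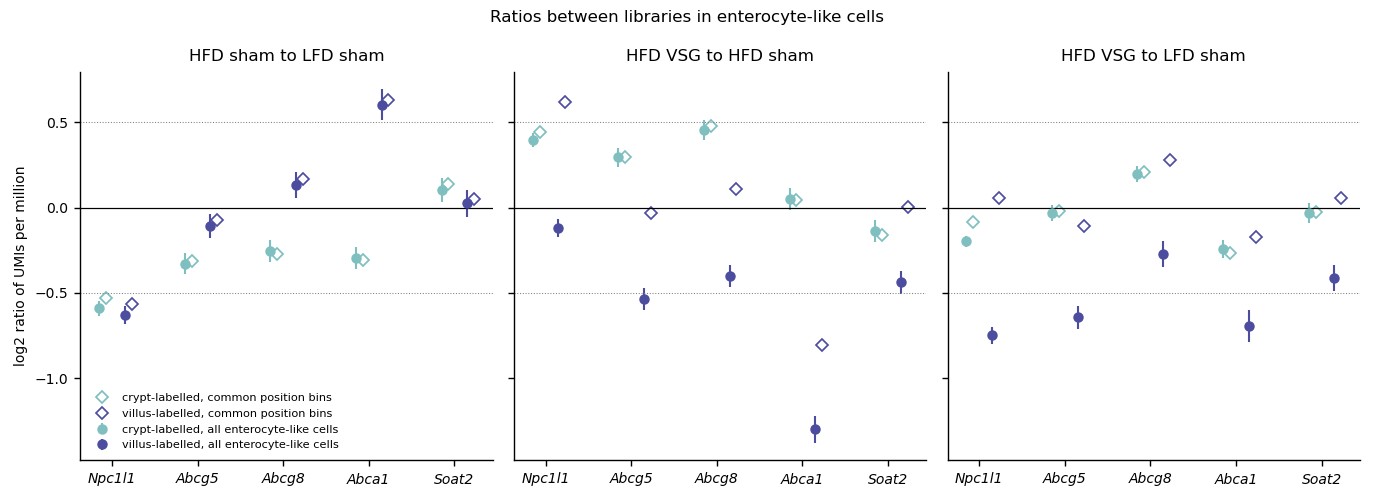
Log2 ratio of each member in enterocyte-like cells for the 3 comparisons, crypt-labelled and villus-labelled libraries apart, with 95% counting intervals and dashed lines at a size of 0.5. Npc1l1 lies at -0.59 and -0.63 for HFD sham to LFD sham, and Abca1 at -1.30 for HFD VSG to HFD sham in villi, while several ratios differ in sign between the labels.

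Signs of RNA quality and of cell maturity moved with the surgery comparison. The summed markers of damaged droplets stood in enterocyte-like cells at 55925, 46800 and 13679 CPM in LFD sham, HFD sham and HFD VSG crypts and at 61397, 39040 and 9467 CPM in villi, and the median mitochondrial share was 13.1, 11.9 and 12.8% and 12.2, 11.6 and 9.04%. In villi the early progenitor markers stood at 1258, 1031 and 2434 CPM and the enterocyte markers at 84896, 99192 and 77254 CPM. Their part in the ratios of the members and of the other sterol genes below was not tested.

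The position of the cells moved with the surgery comparison under both labels, most of all in villi. In bins of the score that were common to the 3 libraries of a label, the HFD VSG villus-labelled library had 585, 304, 114, 85 and 38 cells from base to tip. The HFD sham one had 100, 287, 433, 472 and 321, and the LFD sham one 96, 188, 227, 233 and 422. In crypts HFD VSG had 629, 537, 513, 490 and 317 cells, HFD sham 262, 309, 320, 260 and 340, and LFD sham 286, 335, 352, 387 and 571. With these bins given equal weight, an alternative added after seeing the data, the VSG to HFD sham ratio in villi was 0.62 for Npc1l1, -0.03 for Abcg5, 0.11 for Abcg8, 0.00 for Soat2 and -0.80 for Abca1. Abca1 was then still lower in 5 of 5 bins, whereas Npc1l1 was higher in 4 of 5. The diet ratio of Npc1l1 in the same bins was -0.53 in crypts and -0.57 in villi, lower in 5 of 5 bins of each, and that of Abca1 in villi was 0.63, higher in 5 of 5. The genes of the score differ in level between libraries themselves, so the bins align the cells only as far as those genes do.

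HFD VSG was also set against LFD sham. In crypts the ratio was -0.20 (-0.23 to -0.17) for Npc1l1, -0.03 (-0.08 to 0.01) for Abcg5, 0.20 (0.15 to 0.25) for Abcg8, -0.25 (-0.30 to -0.19) for Abca1 and -0.03 (-0.09 to 0.03) for Soat2. No member passed 0.5, where 4.48% of genes were lower and 9.6% higher. In villi Npc1l1, Abcg5 and Abca1 were lower beyond 0.5, at -0.75 (-0.80 to -0.70), -0.64 (-0.71 to -0.57) and -0.69 (-0.79 to -0.60), and none was higher, where 19.7% of genes were lower and 20% higher. Abcg8 lay at -0.27 (-0.35 to -0.20) and Soat2 at -0.41 (-0.49 to -0.34). In the common bins 0 members passed 0.5 in villi, with Npc1l1 at 0.06, Abcg5 at -0.11 and Abca1 at -0.17. In the common bins of crypts Npc1l1 lay at -0.09. The share over all genes was not taken in these bins. The 3 comparisons share libraries and are not independent of each other.

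Abcg5 and Abcg8 act as a pair, and the balance of their UMIs was followed as the share of Abcg5 in the sum of both, to compare libraries only. In enterocyte-like cells it was 54.0% (53.1 to 54.9), 52.7% (51.5 to 53.9) and 49.96% (49.2 to 50.7) in LFD sham, HFD sham and HFD VSG crypts and 55.5% (54.1 to 56.9), 51.4% (50.2 to 52.6) and 49.1% (48.0 to 50.1) in villi. HFD VSG was lowest under both labels, with an interval apart from the others, while those of LFD sham and HFD sham overlapped in crypts. In droplets with fewer than 100 UMIs the share was 51.0%, 46.5% and 46.7% in crypts and 53.1%, 43.1% and 44.8% in villi, with intervals that overlapped between all 3 groups (47.0 to 54.9%, 41.4 to 51.6% and 43.9 to 49.5% in crypts, 46.6 to 59.5%, 36.6 to 49.9% and 39.8 to 49.8% in villi). Cells with a UMI of both genes were 1.03 to 1.23 times as common as independent detection would give, above 1 in 6 of 6 libraries, after thinning to 3000 UMIs. This was not particular to the pair. Npc1l1 with Abcg5, with Abcg8 and with Soat2 was above 1 in 6 of 6 libraries too, and Npc1l1 with Abca1 ran from 0.987 to 1.38. The kit keeps the strand of a transcript, so UMIs of the overlapping ends of Abcg5 and Abcg8 can be told apart.

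**Figure D5:**
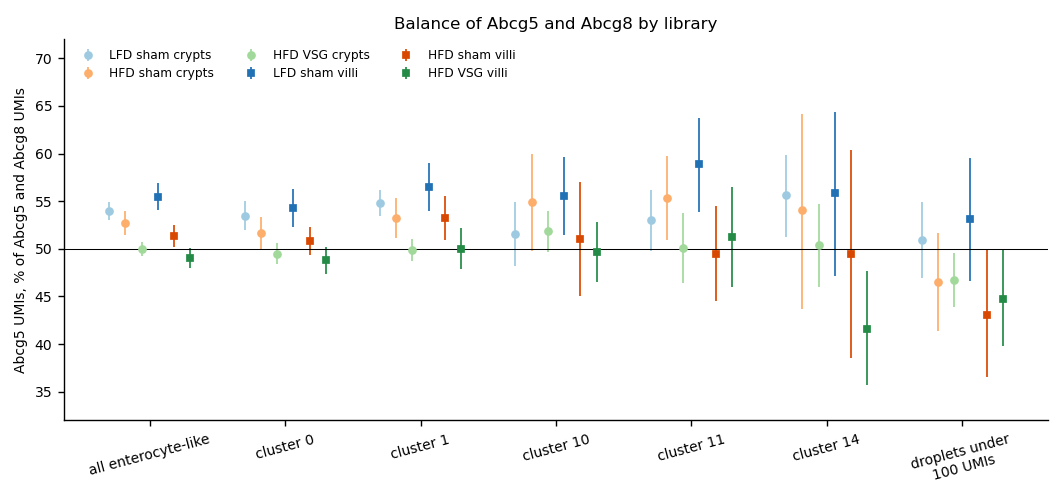
Share of Abcg5 in the UMIs of Abcg5 and Abcg8 (percent) in enterocyte-like cells of each library, with 95% binomial intervals, beside the share in droplets with fewer than 100 UMIs. The cell values run from 54.0% in LFD sham to 49.96% in HFD VSG crypts and from 55.5 to 49.1% in villi, the LFD sham and HFD sham intervals overlapping in crypts.

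The wider sterol pathway was described with 5 lists holding 68 other genes, of which 57 in crypts and 56 in villi averaged 50 UMIs or more per library. The list of sterol sensing and SREBP2 target genes (21 measured of 22) had 6 genes lower and 0 higher in crypts and 13 lower and 0 higher in villi in HFD sham against LFD sham, with a median of -0.11 and -0.79 beside 0.00 and -0.01 for all genes, of which 6.5% and 7.43% were lower. Lower under both labels beyond 0.5 were the synthesis genes Cyp51 (-0.83 and -2.20 in crypts and villi), Fdps (-0.57 and -1.91), Lss (-0.78 and -1.0), Msmo1 (-0.89 and -0.99) and Sqle (-0.80 and -2.24), while Mvd had -0.58 (-1.50 to 0.29) in crypts and -0.79 (-1.27 to -0.30) in villi. Mvd, Sqle and Lss were low, at 0.812 to 2.72 CPM in HFD sham. In crypts Mvd had 37, 17 and 135 UMIs, Sqle 71, 28 and 139 and Lss 60, 24 and 66 in LFD sham, HFD sham and HFD VSG. They averaged under 50 over the sham libraries and passed the minimum only with the HFD VSG library, and their place among the genes counted in crypts is no support for a higher level after VSG. In HFD VSG against HFD sham the same list had 5 genes higher and 0 lower in crypts and 12 higher and 0 lower in villi, with a median of 0.25 and 0.82 beside 0.10 and -0.02 for all genes, of which 6.32% and 19.9% were higher. In the same villus-labelled cells the early progenitor markers were higher after VSG and the enterocyte and damaged droplet markers lower, as given above. Among those higher under both labels were Cyp51 (0.87 and 2.08) and Fdps (1.01 and 2.64). Mvd (1.85 and 2.15) and Sqle (1.17 and 2.5) were counted too, with the limit given above in crypts. At a mean of at least 200 UMIs the list had 3 of 15 genes higher in crypts, where 3.2% of all genes were higher. Both comparisons share the HFD sham libraries, so a value particular to these libraries enters both with opposite sign.

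The 4 other lists are given as counts, to be read against the shares over all genes. With diet these were 5.54% higher and 6.5% lower in crypts and 5.0% higher and 7.43% lower in villi, and with surgery 6.32% higher and 2.38% lower in crypts and 19.9% higher and 17.7% lower in villi. Scarb1 of the uptake list and Soat1 of the esterification list likewise averaged under 50 UMIs over the sham crypt-labelled libraries. The uptake and trafficking list, without Npc1l1 and with 12 of 14 genes measured, had 1 higher and 0 lower in crypts and 2 higher and 1 lower in villi with diet, and 1 higher and 1 lower in crypts and 1 higher and 5 lower in villi with surgery. At a mean of at least 200 UMIs (10 measured) it had 0 higher in crypts with diet, where 4.14% of all genes were higher. Cubn, the cubilin receptor of the brush border, had an HFD VSG to HFD sham ratio of -0.58 in crypts and -2.73 in villi. The intracellular transport list (12 of 15 measured) had 0 higher and 1 lower in crypts and 0 higher and 2 lower in villi with diet, and 0 of either in crypts and 2 higher and 2 lower in villi with surgery. Gramd1b, which encodes a carrier of plasma membrane cholesterol to the endoplasmic reticulum, had 124.5, 66.3 and 69.8 CPM in LFD sham, HFD sham and HFD VSG crypts and 80.5, 51.7 and 24.0 CPM in villi, with diet ratios of -0.91 and -0.64.

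The efflux and LXR target list (8 of 11 measured) had 0 higher and 0 lower in crypts and 1 higher and 0 lower in villi with diet, with a median of -0.07 and 0.13. With surgery it had 1 higher and 0 lower in crypts and 1 higher and 1 lower in villi, with a median of 0.24 and 0.05, Abca1 itself being counted with the members. Nr1h3, which encodes LXR alpha, stood at 43.2, 56.8 and 52.5 CPM in LFD sham, HFD sham and HFD VSG crypts and at 48.2, 64.3 and 57.9 CPM in villi. The esterification and hydrolysis list (6 measured of 8 in crypts, 5 in villi) had 1 higher and 0 lower in crypts and 2 higher and 0 lower in villi with diet, and 1 higher and 1 lower in crypts and 0 higher and 3 lower in villi with surgery, the carboxylesterase gene Ces1d having surgery ratios of -1.55 and -1.96. At a mean of at least 200 UMIs (5 measured) this list had 0 higher in crypts with diet and with surgery, where 4.14% and 3.2% of all genes were higher. Against LFD sham, HFD VSG was beyond 0.5 under both labels for Ces1d (-1.70 and -1.07), Cubn (-0.53 and -1.87), Gramd1b (-0.83 and -1.75), Mvd (1.27 and 1.37, with the limit given above in crypts) and the lipid droplet gene Plin2 (0.61 and 0.56).

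The genes whose levels ran most like those of each member were found by Pearson r over 45 sums of a class in a library, on log2(CPM + 1), among 11277 genes. The points share libraries and cells, and r is a description. Npc1l1 ran most like Slc27a4 (r = 0.94), Lpgat1 (0.94) and Sis (0.94), and among the genes most like Abcg5 were Ephx2 (0.95) and Mttp (0.95). Abcg8 ran most like its partner Abcg5 (0.94), then Fabp2 (0.93) and Exoc3l4 (0.92). Soat2 ran most like Cndp2 (0.96), Ezr (0.95) and Slc9a3r1 (0.95). Abca1 had a looser match, to Papss2 (0.89), Sema6a (0.89) and Selenop (0.88), and lay furthest from the other members, at 0.57 to 0.71, where those lay at 0.81 to 0.94 among themselves. Over the 30 sums of the 5 enterocyte-like clusters alone, 1 of the 15 pairs was again among the 3 nearest, Abcg8 with Abcg5 (0.90).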

How the data were processed

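Single-cell RNA-seq libraries (10x Genomics 3′ v3.1) were deposited by the authors as whole-number UMI counts per gene and barcode, not normalised, with all barcodes and with called barcodes, from Cell Ranger 6.0.0 on mm10 (per the submitters' processing notes). Crypts and villi had been separated by EDTA, scraping and a strainer, and cells of several mice pooled. From the deposited counts, those under 750 genes or over 20% mitochondrial UMIs were dropped, as were 4794 of 59457 called barcodes that scored highest against simulated doublets. Seurat 5.3.0 with sctransform 0.4.2 (R 4.3.3) integrated the libraries (2000 genes, 30 components, resolution 0.4), the members and the listed sterol genes being left out of the 2000 genes. The integration was run with the mitochondrial share in single precision and repeated in double precision as an alternative added after seeing the data. Clusters were named from markers by thresholds set after seeing the data. UMIs were summed per class and library and given as CPM, with exact Poisson, binomial and conditional binomial 95% intervals (SciPy 1.17.1). Ratios used classes of at least 20 cells, sums under 3 UMIs being set to 3 in the log2 value. Genes averaging 50 UMIs or more formed the background. GENCODE vM21 matched 32158 of 32285 gene identifiers. The members, the lists and the named genes (listed sterol genes beyond 0.5 under both labels, and the 3 nearest genes of each member) were chosen with earlier results of these data known, and Nr1h3 was named after its values were seen. Some genes that this rule names are not reported here. The alternatives tried covered free RNA, cell and doublet filters, scaling, resolution, cluster weights and position. The scripts were tested on simulated data.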

Additional observations from a re-analysis of the deposited data

Results flagged for a closer look

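Several ratios in enterocyte-like cells lay on opposite sides of 0 in the crypt-labelled and villus-labelled libraries, each with its counting interval away from 0. With 1 library per group the difference between the labels was not tested in any of these cases. In HFD sham against LFD sham this held for Abcg8, at -0.26 in crypts and 0.13 in villi (-0.06 with equal weight of the clusters, and below 0 in 3 of 5 clusters), and for Abca1, at -0.30 (-0.02 in the alternative nearest 0) and 0.60. In HFD VSG against HFD sham it held for Npc1l1, at 0.39 and -0.12 (0.01 with resolution 0.8), for Abcg5, at 0.29 (-0.11 with at most 10% mitochondrial UMIs) and -0.54, and for Abcg8, at 0.45 and -0.40. In HFD VSG against LFD sham it held for Abcg8, at 0.20 and -0.27. The cells of the HFD VSG villus-labelled library lay further toward the base end of the position score than those of the other villus-labelled libraries. In bins common to the libraries the villus values of Npc1l1, Abcg5 and Abcg8 for HFD VSG against HFD sham were 0.62, -0.03 and 0.11, and that of Abcg8 against LFD sham was 0.28.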

How the results depend on the processing

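The 30 member ratios recomputed under 12 alternatives gave 360 values, of which 341 kept their sign. The 8 ratios beyond 0.5 in the reported setting gave 96 of these values, of which 86 stayed beyond 0.5 and 1 turned, while 16 others passed it. The alternatives were unlike in effect. A minimum of 1500 genes kept 30 of 30 signs and 8 of 8 sizes, whereas common position bins kept 24 signs and 4 sizes. The unnamed clusters, the repeated clustering and the common position bins were added after seeing the data. The cause of the changes below was not tested.

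The count of members beyond 0.5 in HFD sham against LFD sham fell from 1 to 0 in crypts with free RNA subtracted at the fractions the study stated, and from 2 to 1 in villi with at most 10% mitochondrial UMIs, with resolution 0.8 and with equal cluster weights. In HFD VSG against HFD sham it was 1 in place of 0 in crypts with free RNA subtracted by immune-like cells, with resolution 0.8 and with equal weights. In villi it was 4 in place of 2 with the stated free RNA fractions, with the unnamed clusters and in the repeated clustering, 5 with at most 10% mitochondrial UMIs, and 1 with resolution 0.8 and with equal weights. In HFD VSG against LFD sham in villi it was 0 in place of 3 in common position bins, where Npc1l1 turned from -0.75 to 0.055, and 4 with free RNA subtracted by immune-like cells, with the unnamed clusters and in the repeated clustering. Abca1 in HFD VSG against HFD sham in villi stayed between -1.65 and -0.80 in all 12 alternatives. In the repeated clustering 17 in place of 11 other sterol genes were lower by over 0.5 in HFD VSG against LFD sham in villi. In the reported clustering these were 11 of 56 measured, where 19.7% of all genes were lower. The share of all genes beyond 0.5 was not taken under the alternatives of this paragraph. A count that moved is therefore not a result about the members or the sterol genes.

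Without thinning, 13 in place of 28 of 30 differences in the share of cells went the way of the summed level. With a mean of at least 200 UMIs (48 measured in place of 57), the other sterol genes beyond 0.5 in crypts went from 2 to 0 higher and 7 to 4 lower (HFD sham against LFD sham), from 7 to 4 higher (HFD VSG against HFD sham) and from 6 to 2 higher (HFD VSG against LFD sham). The shares over all genes fell too, in the same order from 5.54 to 4.14%, from 6.5 to 4.12%, from 6.32 to 3.2% and from 9.6 to 7.29%. Of the 15 nearest genes, 1 stayed with the enterocyte-like clusters alone and 9 without the HFD VSG villus-labelled library. No paired analysis was possible because each group has 1 library per compartment and the labels carry no replicate numbers, the libraries that share animals being those of 1 group. Small EEC-like and tuft-like sums limit what can be read there, and pooled mice give no spread between animals.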

Other observations

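The 5 enterocyte-like clusters differed from each other in the members. Against the other enterocyte-like cells of the same library, cluster 0, led by base genes (Reg1, Gsta1) beside Sult6b2, had lower Npc1l1 in 6 of 6 libraries, at -0.96 to -0.64 on the log2 scale. Cluster 1, led by Apoc2, Cubn and Cyp3a11, had higher Npc1l1 in 6 of 6, by 0.47 to 1.00, higher Abcg5 in 6 of 6, by 0.26 to 0.97, and higher Abcg8 in 6 of 6, by 0.22 to 0.90. Abca1 was higher in cluster 1 in 5 of 6 libraries, at -0.06 to 1.02, and Soat2 in 5 of 6, at -0.02 to 0.58. Cluster 10, led by Fabp6, had higher Npc1l1 (0.43 to 0.75) and higher Soat2 (0.18 to 0.54) in 6 of 6 libraries, while Abcg5, Abcg8 and Abca1 were each higher in it in 2 and lower in 4.

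Joint detection in enterocyte-like cells thinned to 3000 UMIs was above that of independent genes in 6 of 6 libraries for Npc1l1 with Abcg5 (1.02 to 1.15 times), Npc1l1 with Abcg8 (1.01 to 1.13) and Npc1l1 with Soat2 (1.02 to 1.18), and in 3 of 6 for Abca1 with Soat2 (0.952 to 1.30).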
